A study of Rattus norvegicus with 9 samples.

Results

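Immediate early genes are the genes that neurons switch on fastest after synaptic activity, and 37 of them were followed here in the amygdala of ovariectomised hypertensive rats with and without estradiol. They were taken as every array probe whose gene name equals one of the 37 listed symbols, which gave 59 of the 45598 probes on the array. The array lists 34912 different names as genes, some of them names of probes. All 37 genes were on the array, 16 of them with more than 1 probe, and 35 genes with 55 probes were measured well enough to be tested. The study asked which genes of the amygdala depend on estradiol in the SHR, an inbred rat strain with high blood pressure. Total RNA from the right and left amygdala of 1 rat was hybridised to each array.

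The OV+E2 group held 5 female SHR and the OV group 4. All 9 rats lost both ovaries at 4 weeks of age, recovered for 1 week, and then carried an Alzet minipump under the skin for about 4 weeks until they were 9 weeks old. The pump of OV+E2 rats held estradiol at 0.33 mg/ml in PEG and delivered 2 µg a day, and that of OV rats held PEG alone. Every rat was killed by ether inhalation and then decapitation, and 1 operator dissected all amygdalae under a microscope. No group with intact ovaries was analysed here, so each comparison is between hormone replacement and its lack.

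Calcium entry at active synapses and growth factor receptors both start kinase cascades that end on transcription factors already present in the nucleus, chiefly CREB and SRF. These bind the promoters of immediate early genes, whose transcripts then appear within minutes, need no new protein and mostly decay quickly. Many of the products are themselves transcription factors (Fos, Jun, Egr and Nr4a families), while others act at synapses (Arc, Homer1) or shut the signal down again (Dusp phosphatases). In the amygdala, Fos, Arc and Egr1 are widely used to mark neurons that were active during fear, stress or social contact.

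The RefSeq promoter table (build GRCr8) held 28 promoters for 26 of the 37 genes, and the 250 bases before each transcription start were searched on both strands. The CRE, the site for CREB (TGACGTCA), was present in 6 of the 28 promoters (21.4%), namely 2 of Crem and those of Btg2, Dusp1, Ier2 and Jund, and in 1.59% of all 33469 rat promoters. Its core (TGACG), which every whole CRE also contains, was present in 60.7% against 18.2%. The CArG box, the site for SRF, was present in the promoters of Dusp5, Egr1, Egr2 and Zfp36 (14.3% against 1.5%). Matches to the Egr site (GCGNGGGCG) were found in 25% against 4.29%. The estrogen response element (ERE), the inverted repeat to which estrogen receptors bind, matched 0 of the 28 and 0.0239% of all promoters. The AP-1 site (TGANTCA), where Fos and Jun dimers bind, also matched 0 of the 28 (6.34% of all promoters), as did the NBRE (AAAGGTCA), where Nr4a proteins bind (1.24%). A match of 0 says only that these letters are not in this window. A match describes the sequence and does not show that a factor is bound. Shown next are promoters of 4 genes whose level varied with that of Arc between rats (Egr1, Egr2, Ier2, Nr4a1) and of Dusp5, which carries 2 CArG boxes side by side, with CRE, CRE cores and CArG boxes in capitals. They lie at chr18:26736828-26737077 (Egr1, plus strand), chr20:21054442-21054691 (Egr2, minus strand), chr19:40399123-40399372 (Ier2, plus strand), chr7:134259888-134260137 (Nr4a1, plus strand) and chr1:262543524-262543773 (Dusp5, plus strand).
Egr1 promoter: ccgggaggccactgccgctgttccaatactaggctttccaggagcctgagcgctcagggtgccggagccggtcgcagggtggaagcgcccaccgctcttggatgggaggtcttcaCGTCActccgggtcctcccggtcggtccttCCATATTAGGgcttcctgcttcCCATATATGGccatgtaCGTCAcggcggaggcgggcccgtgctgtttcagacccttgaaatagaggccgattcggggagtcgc
Egr2 promoter: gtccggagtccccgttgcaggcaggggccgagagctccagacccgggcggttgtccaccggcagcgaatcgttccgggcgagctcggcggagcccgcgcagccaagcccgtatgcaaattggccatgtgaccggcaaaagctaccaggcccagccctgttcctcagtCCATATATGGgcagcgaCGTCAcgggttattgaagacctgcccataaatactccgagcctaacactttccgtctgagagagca
Ier2 promoter: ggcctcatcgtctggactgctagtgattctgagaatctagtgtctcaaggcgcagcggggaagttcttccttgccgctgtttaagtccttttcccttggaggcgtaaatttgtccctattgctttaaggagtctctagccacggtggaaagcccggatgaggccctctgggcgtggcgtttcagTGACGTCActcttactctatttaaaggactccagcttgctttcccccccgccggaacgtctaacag
Nr4a1 promoter: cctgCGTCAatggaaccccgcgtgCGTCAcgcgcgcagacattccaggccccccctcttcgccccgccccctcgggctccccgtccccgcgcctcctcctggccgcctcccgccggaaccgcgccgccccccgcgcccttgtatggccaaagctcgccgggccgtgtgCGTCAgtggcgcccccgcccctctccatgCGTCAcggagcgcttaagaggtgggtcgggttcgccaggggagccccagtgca
Dusp5 promoter: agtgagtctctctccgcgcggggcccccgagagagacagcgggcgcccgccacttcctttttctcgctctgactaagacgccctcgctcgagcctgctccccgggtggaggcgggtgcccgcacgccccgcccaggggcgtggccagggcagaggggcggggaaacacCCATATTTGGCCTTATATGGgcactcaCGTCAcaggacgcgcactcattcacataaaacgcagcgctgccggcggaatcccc

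In Egr1 and Egr2 the CArG box nearest the start spans bases 83 to 74 before it, and a CRE core lies at bases 66 to 62 in both. Egr1 has a second CArG box at bases 105 to 96. Ier2 carries its whole CRE at bases 66 to 59. Nr4a1 has 4 CRE cores and neither a whole CRE nor a CArG box in this window.

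Levels are given as log2 of the background-subtracted signal minus the 75th percentile of the array, so 0 is that percentile and a difference of 1 is a 2-fold change. Levels of different probes are not compared, because probes differ in brightness. A probe was tested when it was well above background, as the scanner software marks it, on at least 4 of the 9 arrays (30215 probes), and a gene is represented by its brightest tested probe unless another is named. Differences are OV+E2 minus OV with the standard error (SE) of a limma fit, and a probe was called at a Benjamini-Hochberg adjusted p under 0.05 over all 30215 probes. OV replicate 3 gave the dimmest array, with a 75th percentile of 129.7 where the other 8 had 556.8 to 737.6, and it had fewer probes well above background (24225, where the others had 29052 to 31395). OV replicate 3 therefore stands apart, and where a difference turned its sign or moved by much when that array was left out, the value without it is given. The arrays lay on 2 slides: slide 1 held OV+E2 replicates 1 and 2 and OV replicates 1, 2 and 3, and slide 2 held OV+E2 replicates 3, 4 and 5 and OV replicate 5. Of 8 marker genes for amygdala nuclei, 7 were tested, and their mean level was 0.72 to 0.94 in OV+E2 and 0.58 to 0.73 in OV rats. Among the 7, Prkcd differed most (mean 1.82 in OV+E2 and 0.97 in OV rats). Foxp2 (−1.70 and −1.55) and Cyp26b1 (1.58 and 1.69) went the other way. The marker left out, Rspo2, stayed at background in every rat.

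No immediate early gene was called as different between OV+E2 and OV amygdala. Of the 35 tested genes 0 passed the threshold (limma, smallest adjusted p 0.329), and 0% of all probes did in this comparison. The gene differences were positive in 17 and negative in 18, with a median of −0.02 beside 0.00 for all probes. At an unadjusted p under 0.05 there was 1 higher gene, Nfil3 (3.2% of all probes were higher at that level), and 1 lower gene, Dusp4 (7.17% of all probes). These shares are close to those of all probes and single out neither direction. The split of 17 positive to 18 negative became 23 to 12 when arrays were scaled to their median, which also moved the median of all probes to 0.11, and 24 to 11 in the authors' own values. Under quantile normalization and under median scaling 2 genes were higher and 1 lower at an unadjusted p under 0.05, as Dusp1 joined Nfil3 and Dusp4, beside 4.44% higher and 6.36% lower of all probes with quantile normalization and 4.61% and 5.09% with median scaling. In the authors' values 3 genes were higher (Jun, Crem and Dusp6) and 2 lower (Fosl2 and Dusp4), beside 8.47% and 10.4% of all probes, and 0 were called beside 0.23% of all probes. Without OV replicate 3 there were 2 higher (5.84% of all probes) and 1 lower (8.27%) at that level, and 0 genes were called beside 0.00331% of all probes. With slide as a block there were 1 higher (2.04%) and 0 lower (5.59%). With array weights, which let arrays that deviate more from the fit count less, there were 5 higher (11.2%) and 2 lower (14.1%). Still 0 genes were called with those weights, where 4.28% of all probes were. Nfil3 passed that unadjusted level in each of the 9 fits that left out a single rat. Leaving out OV replicate 3 turned the sign of 10 of the 35 differences, those of Fos, Junb, Jund, Egr4, Nr4a1, Klf2, Atf3, Sik1, Btg2 and Trib1. In whole tissue, fewer active cells and less of a transcript per cell cannot be told apart.

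**Figure D1:**
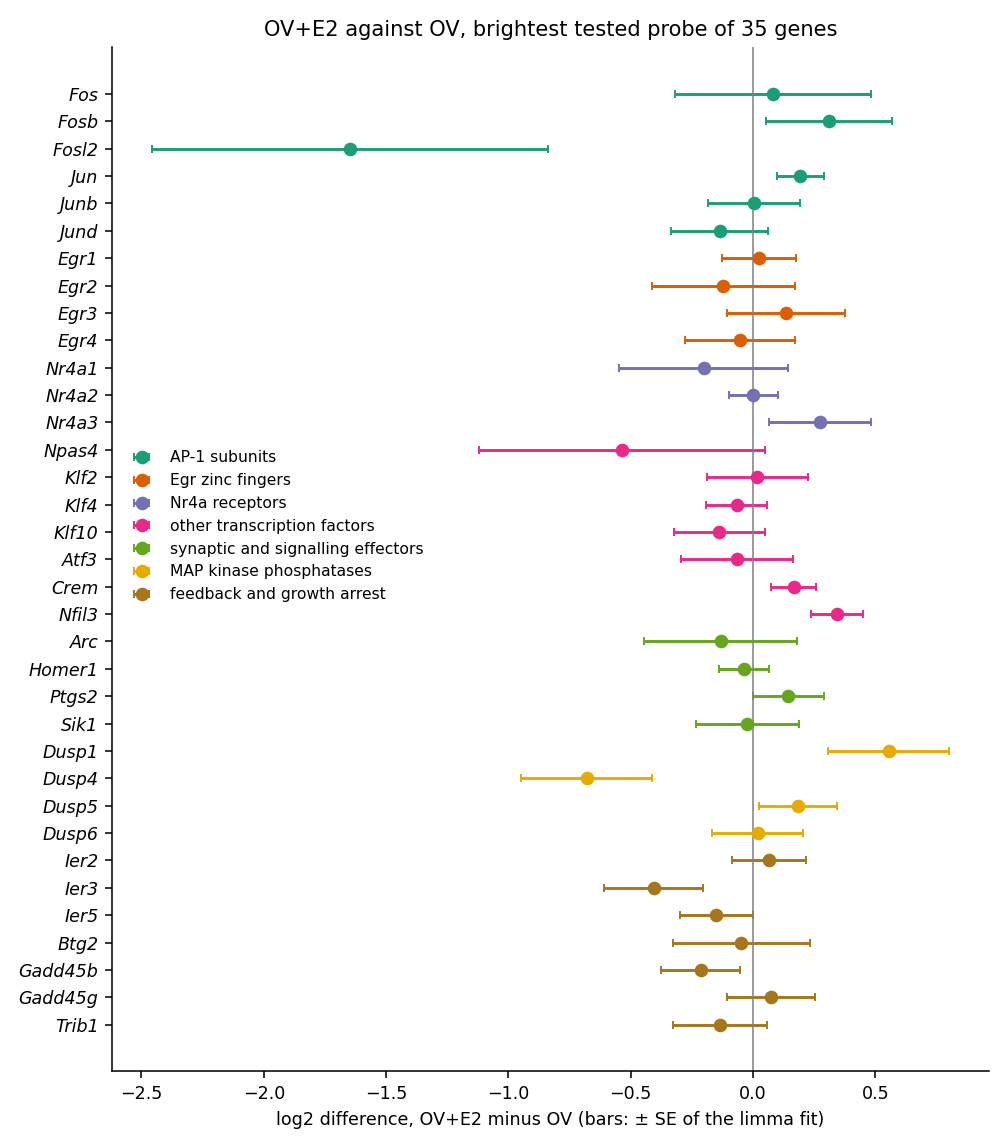
Log2 difference, OV+E2 minus OV, for the brightest tested probe of each of 35 immediate early genes, coloured by role, with bars of ± 1 SE from limma. The points lie on both sides of 0, from −1.65 for Fosl2 to 0.55 for Dusp1, and no gene was called at an adjusted p under 0.05.

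The AP-1 transcription factor is a dimer of Fos-family and Jun-family proteins, and 6 of its 7 listed subunits were tested. Fos, the standard marker of recent neuronal activity (probe at rn4 chr6:109561941-109562000, plus strand), was at −2.60, −2.65, −1.72, −1.55 and −1.46 in the 5 OV+E2 rats and at −1.41, −2.16, −3.12 and −1.62 in the 4 OV rats. Each group held both high and low rats, and the groups overlapped. The difference was 0.08 ± 0.40 (SE; limma adjusted p 0.924), and it was −0.27 (unadjusted p 0.45) without OV replicate 3, the lowest rat. Fosb, which yields the long-lived ΔFosB protein after repeated stimulation, was at −2.44, −2.53, −2.24, −1.20 and −1.81 in OV+E2 rats and at −2.38, −2.41, −2.19 and −2.43 in OV rats. OV+E2 replicates 4 and 5 were above every OV rat, and the other 3 lay among or below them. The Fosb difference was 0.31 ± 0.26 (adjusted p 0.559).

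Fosl2, which encodes the Fos-related antigen Fra-2, had the most negative difference of the set and shows how much 1 array can weigh. Its brightest probe was at −1.60, −1.52, −1.87, −1.80 and −2.00 in OV+E2 rats and at −1.39, −1.24, 2.99 and −0.81 in OV rats. Every OV rat was above every OV+E2 rat, and OV replicate 3 was far above the rest. The difference of −1.65 ± 0.81 (adjusted p 0.503) became −0.61 without that rat (unadjusted p 0.00434, adjusted p 0.177) and −0.75 in the authors' values (adjusted p 0.0722). The other Fosl2 probes differed by −0.15 ± 0.22 and −0.38 ± 0.25 (0.01 and −0.21 without that rat), and on both the groups overlapped. Groups did not overlap for 2 of the 35 genes, Nfil3 with OV+E2 higher (2.88% of all probes) and Fosl2 with OV+E2 lower (4.02% of all probes).

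Among the Jun-family subunits, Junb, an early and transient partner of Fos, was at −2.88, −2.44, −2.11, −1.97 and −1.98 in OV+E2 rats and at −2.23, −2.33, −2.33 and −2.22 in OV rats. The OV rats lay within a narrow band and the OV+E2 rats on both sides of it, with a difference of 0.00 ± 0.19 (adjusted p 0.997, and −0.02 without OV replicate 3). Jun itself gave 0.19 ± 0.10 (adjusted p 0.503) on its brighter probe and −0.33 ± 0.21 (adjusted p 0.521) on the other. The second Jun probe was at 2.51 in OV replicate 3 and at 1.45 to 1.76 in the other OV rats, and its difference was −0.10 without that rat. Jund, the most constitutive of the Jun proteins, differed by −0.14 ± 0.20 and −0.13 ± 0.14 on its probes, and by 0.09 and −0.01 without OV replicate 3. Fosl1, which encodes Fra-1, was well above background on 1 of 5 OV+E2 arrays and 0 of 4 OV arrays, so it was not tested.

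The Egr proteins are zinc finger transcription factors that act downstream of MAP kinase signalling. Egr1 (rn4 chr18:27347173-27347232, plus strand) was at 2.18, 2.36, 2.46, 2.87 and 2.78 in OV+E2 rats and at 2.62, 2.53, 2.47 and 2.41 in OV rats. The 2 lowest and the 2 highest rats were all OV+E2, and the difference was 0.02 ± 0.15 (adjusted p 0.943). Egr2, which is needed for myelination by Schwann cells and is induced by activity in neurons, was at −2.37, −2.36, −1.91, −1.08 and −1.24 in OV+E2 rats and at −1.38, −1.86, −1.67 and −1.77 in OV rats. Here too the extremes on both sides were OV+E2 rats (difference −0.12 ± 0.29, adjusted p 0.833). Egr3 was at −3.70, −3.33, −3.02, −2.58 and −3.06 in OV+E2 rats and at −2.98, −3.38, −3.01 and −3.73 in OV rats (0.13 ± 0.24, adjusted p 0.771). OV+E2 replicate 4 was highest, and OV replicate 5 and OV+E2 replicate 1 were lowest. The second Egr3 probe differed by −0.71 ± 0.46, and by −0.15 without OV replicate 3, its highest rat. For Egr4 the levels were 1.93, 1.99, 2.39, 2.61 and 2.44 in OV+E2 rats and 2.47, 1.98, 2.87 and 1.99 in OV rats (−0.05 ± 0.22, adjusted p 0.906, and 0.13 without OV replicate 3, the highest rat). The median difference of the 4 Egr genes was −0.02.

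Nr4a1, Nr4a2 and Nr4a3 encode orphan nuclear receptors, for which no classical hormone ligand is needed. Nr4a1, also called Nur77 (rn4 chr7:140020442-140020501, plus strand), was at 1.52, 2.09, 2.55, 2.84 and 2.90 in OV+E2 rats and at 2.65, 2.33, 3.34 and 2.01 in OV rats. The highest rat was OV replicate 3 and the lowest OV+E2 replicate 1, and the groups overlapped (−0.20 ± 0.34, adjusted p 0.758, and 0.05 without OV replicate 3). Nr4a2, a factor needed by midbrain dopamine neurons, ran from 1.24 to 1.60 in OV+E2 rats and from 1.26 to 1.46 in OV rats, with a difference of 0.00 ± 0.10. The 2 Nr4a3 probes differed by 0.27 ± 0.21 and −0.43 ± 0.26. On both, OV replicate 3 was far from the other OV rats, at −1.01 beside −0.18 to 0.12 on the first and at 0.09 beside −1.29 to −1.05 on the second. Without that rat the Nr4a3 probes differed by 0.04 (unadjusted p 0.717) and −0.12.

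**Figure D2:**
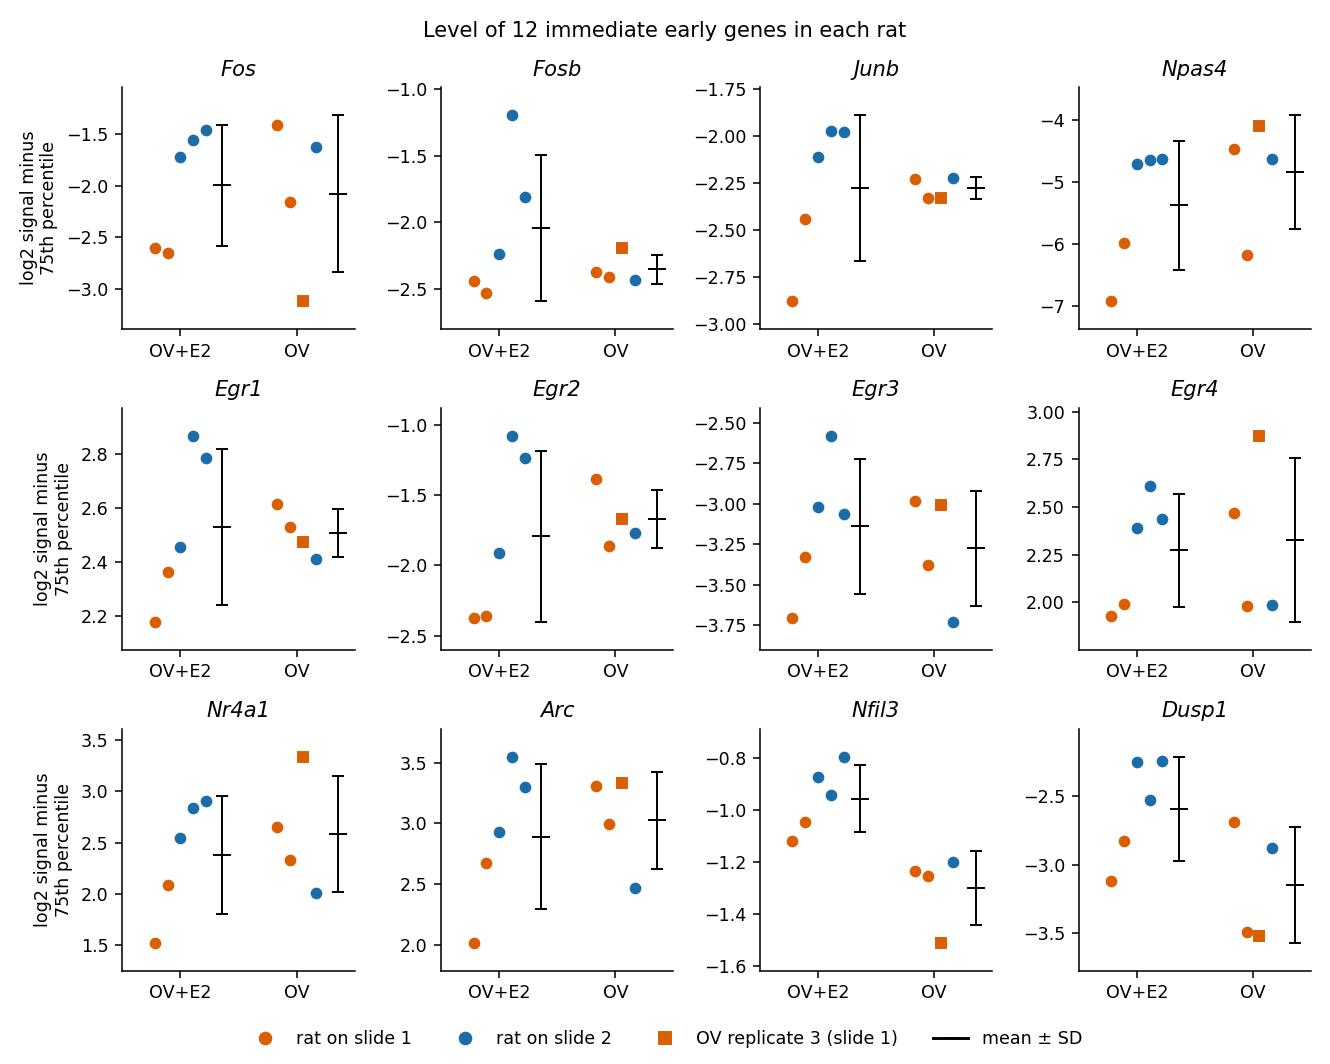
Level of 12 immediate early genes in each rat (log2 signal minus the 75th percentile of the array), OV+E2 left and OV right in each panel, with the mean ± SD beside the points, the slide shown by colour and OV replicate 3 as a square. The 12 panels are a selection, and in them both OV+E2 rats on slide 1 lie below the 3 OV+E2 rats on slide 2. Other genes did not show this order on their brightest probes, such as Fosl2, Jun, Jund, Nr4a2, Nr4a3, Dusp4 and Ier3. No count of it over all tested genes or all probes is given here. Nfil3 is the 1 panel of the 12 in which all 5 OV+E2 rats lie above all 4 OV rats.

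Of the other transcription factors 7 were tested, with 3 positive and 4 negative differences. Nfil3 encodes a repressor of the basic leucine zipper type that also takes part in the circadian clock (rn4 chr17:18107192-18107251, plus strand). Its level was −1.12, −1.05, −0.87, −0.94 and −0.79 in OV+E2 rats and −1.23, −1.25, −1.51 and −1.20 in OV rats. Every OV+E2 rat was above every OV rat, and the difference was 0.34 ± 0.11 (unadjusted p 0.0107, adjusted p 0.329). It was 0.14 (unadjusted p 0.322) in the authors' values, 0.17 (unadjusted p 0.0964) after normexp background correction and 0.27 (unadjusted p 0.0118) when OV replicate 3 was left out. Npas4, a neuron-specific factor induced by calcium entry, was at −6.92, −5.98, −4.72, −4.65 and −4.62 in OV+E2 rats and at −4.46, −6.18, −4.10 and −4.62 in OV rats. It was well above background in 3 of 5 OV+E2 and 2 of 4 OV rats, so its difference of −0.53 ± 0.58 (adjusted p 0.637) rests on dim signals. Leaving out OV replicate 3 gave −0.29, and the authors' values gave 0.05.

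Crem, whose ICER product is an inducible repressor at CRE sites, had differences of 0.15 to 0.84 on its 4 tested probes. The widest came from 1 probe on which OV replicate 3 was at −5.76 and every other rat between −2.52 and −2.28, and without that rat this probe differed by −0.01. Its brightest probe ran from 1.05 to 1.38 in OV+E2 rats and from 0.97 to 1.11 in OV rats (0.17 ± 0.09, adjusted p 0.514). The Krüppel-like factors Klf2, Klf4 and Klf10 differed by 0.02 ± 0.21, −0.07 ± 0.12 and −0.14 ± 0.19, and Klf2 by −0.15 without OV replicate 3. Atf3, a factor induced by cell stress and nerve injury, differed by −0.07 ± 0.23, and by 0.00 without OV replicate 3. In each of these 4 genes the OV+E2 rats spanned a wider range than the OV rats apart from OV replicate 3.

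Arc, an activity-regulated protein that removes AMPA receptors from synapses (rn4 chr7:112772025-112772084, minus strand), was at 2.02, 2.67, 2.93, 3.55 and 3.30 in OV+E2 rats and at 3.31, 2.99, 3.33 and 2.47 in OV rats. The highest and the lowest rats were both OV+E2, and the groups overlapped (−0.13 ± 0.31, adjusted p 0.83). Sik1, a kinase that restrains the coactivators of CREB, differed by −0.02 ± 0.21 and −0.41 ± 0.37 on its probes. On both Sik1 probes OV replicate 3 was the highest rat, and without it the differences were 0.20 and 0.04.

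The MAP kinase phosphatases end the signals that induce the other genes, and 3 of the 4 were positive. Dusp1, which switches off p38, JNK and ERK in the nucleus, was at −3.12, −2.83, −2.25, −2.53 and −2.24 in OV+E2 rats and at −2.69, −3.49, −3.52 and −2.88 in OV rats. The 3 highest rats were OV+E2 and the 2 lowest OV. The Dusp1 difference of 0.55 ± 0.25 (unadjusted p 0.0509, adjusted p 0.482) was 0.37 with slide as a block and 0.03 after normexp background correction. Dusp4, another nuclear phosphatase (rn4 chr16:61109868-61109927, minus strand), was at −4.79, −4.48, −5.09, −4.83 and −4.15 in OV+E2 rats and at −4.41, −4.34, −3.26 and −3.95 in OV rats. The groups overlapped through OV+E2 replicate 5, and the highest rat was OV replicate 3. The Dusp4 difference was −0.68 ± 0.27 (unadjusted p 0.0316, adjusted p 0.436), and it was −0.44 (unadjusted p 0.0724) without that rat. Dusp5 and Dusp6, which act on ERK in the nucleus and in the cytoplasm, differed by 0.18 ± 0.16 and 0.02 ± 0.19, and Dusp6 by 0.20 without OV replicate 3.

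The remaining 8 genes restrain growth, mark stress or feed back on signalling, and 7 were tested, 5 of them with negative differences. Ier3, a regulator of cell survival, was at −0.48, −0.56, −0.49, −0.34 and −0.62 in OV+E2 rats and at −0.45, −0.18, 0.61 and −0.33 in OV rats. OV replicate 3 was again far above the rest, and the difference of −0.41 ± 0.20 (adjusted p 0.503) was −0.17 without it. Btg2, an antiproliferative protein, was at −0.48, −0.46, 0.43, 0.24 and 0.28 in OV+E2 rats and at 0.23, −0.45, 0.64 and −0.21 in OV rats. Its rats fell into high and low values within both groups (−0.05 ± 0.28, adjusted p 0.937, and 0.15 without OV replicate 3). Ier2 differed by 0.07 ± 0.15 and Ier5 by −0.15 ± 0.15. The stress sensors Gadd45b and Gadd45g differed by −0.21 ± 0.16 and 0.07 ± 0.18, and the pseudokinase Trib1 by −0.14 ± 0.19. Without OV replicate 3 Gadd45b differed by −0.10 and Trib1 by 0.02. Zfp36, whose product binds and destabilises mRNAs rich in A and U, was well above background on 0 of 5 OV+E2 arrays and 1 of 4 OV arrays and was not tested.

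Probes of the same gene did not always give the same answer. Of 15 genes with several tested probes, 7 had differences of opposite sign. At an unadjusted p under 0.05 in limma there were 4 of the 55 tested probes, beside 3.2% higher and 7.17% lower of all probes. The smallest p-values among these 55 were those of a second probe of Ptgs2 and of Egr2. Shown here are the first 30 of the 60 bases of each probe of Ptgs2, Egr2 and Homer1, chosen after their values were seen because their probes ordered the rats differently. The Ptgs2 probes lie on the plus strand of chromosome 13 in rn4, in the order of their distance along the gene at chr13:64432919-64432978, chr13:64433908-64433967 and chr13:64435202-64435261. The Egr2 probes lie on the minus strand at chr20:21884977-21885036 and chr20:21883940-21883999. The files do not say whether a probe lies in coding or untranslated sequence.
Ptgs2 probe A_64_P129316: tccagactagatgacattaaccctacagta
Ptgs2 probe A_44_P1153274: aagctaaagaccgcatcgagggttaaactt
Ptgs2 probe A_43_P11872: gccaacatgattgttgtgaacatcaacctg
Egr2 probe A_44_P1164501: tcgagctgcaaacactaccgcccttctgtg
Egr2 probe A_42_P473594: gctcttaatagttgtggaaagattaaacaa
Homer1 probe A_44_P1084370: gcaggggtcaatcccatctgtgtataagtt
Homer1 probe A_44_P1102189: cacaggtgctactggagtttgcattagtat
Homer1 probe A_44_P380835: aacagaagctcattgacaaactaaagtgac

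Ptgs2 encodes the inducible cyclooxygenase COX-2, which neurons make after activity. Its first probe, A_64_P129316, was at −2.80, −3.20, −3.00, −2.81 and −3.33 in OV+E2 rats and at −2.09, −2.48, −2.52 and −2.53 in OV rats. All 5 OV+E2 rats were below all 4 OV rats, as for 4.02% of all probes (−0.62 ± 0.15, limma unadjusted p 0.00244, adjusted p 0.252). The groups did not overlap on 3 of the 55 tested probes of the listed genes, beside 2.88% higher and 4.02% lower of all probes. The other 2 Ptgs2 probes were positive, at 0.25 ± 0.20 (A_44_P1153274) and 0.14 ± 0.15 (A_43_P11872). On both of those OV+E2 replicates 4 and 5 were the highest rats, at −1.78 and −1.93 on the first and at 0.72 and 0.59 on the second. The brightest probe, A_43_P11872, ran from 0.15 to 0.72 in OV+E2 rats and from 0.09 to 0.35 in OV rats.

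The Egr2 probe A_44_P1164501 was at −2.54, −2.07, −2.86, −2.87 and −2.30 in OV+E2 rats and at −2.09, −1.92, −1.13 and −1.52 in OV rats. The groups touched only between OV+E2 replicate 2 and OV replicate 1 (−0.87 ± 0.24, unadjusted p 0.00534, adjusted p 0.286, and −0.69 without OV replicate 3). OV+E2 replicate 4, the lowest rat on this probe, was the highest on the brighter probe A_42_P473594, whose difference was −0.12 ± 0.29. Homer1 makes long scaffold proteins of the postsynaptic density all the time and a short form after activity. The files do not say which form each probe reads. Probe A_44_P380835 was at −1.48, −1.66, −1.28, −0.07 and −0.68 in OV+E2 rats and at −1.08, −1.48, −3.57 and −1.45 in OV rats. OV+E2 replicates 4 and 5 were highest and OV replicate 3 lowest (0.86 ± 0.53, adjusted p 0.52), and the difference was 0.30 without that OV rat. The other Homer1 probes stayed within 2.99 to 3.32 and 0.85 to 1.17 in OV+E2 rats and within 3.04 to 3.29 and 0.85 to 1.21 in OV rats, and differed by −0.04 ± 0.10 and −0.01 ± 0.11.

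**Figure D3:**
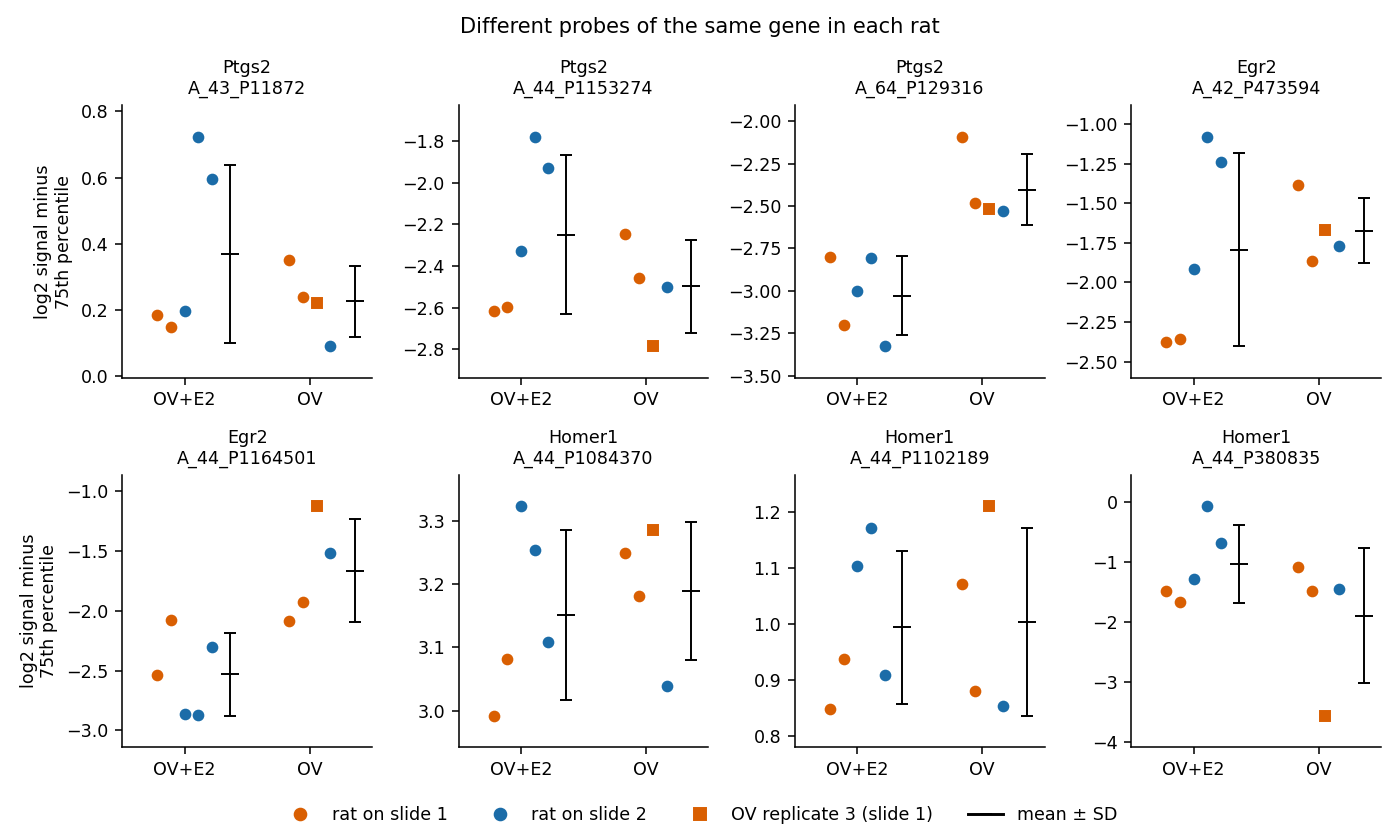
Level of each probe of Ptgs2, Egr2 and Homer1 in each rat (log2 signal minus the 75th percentile of the array), OV+E2 left and OV right, with the mean ± SD, the slide by colour and OV replicate 3 as a square. The groups separate on Ptgs2 probe A_64_P129316, as for 4.02% of all probes with OV+E2 lower. They overlap on the other 2 Ptgs2 probes, where OV+E2 replicates 4 and 5 are highest.

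Rats of the same group differed widely. Counted over the 35 genes, a level above the mean of the 8 arrays other than OV replicate 3 was found for 4 genes in OV+E2 replicate 1, 11 in OV+E2 replicate 2, 18 in OV+E2 replicate 3, 31 in OV+E2 replicate 4 and 30 in OV+E2 replicate 5. In OV rats the counts were 30 in replicate 1, 13 in replicate 2, 23 in replicate 3 and 8 in replicate 5. Both groups thus held rats in which nearly all immediate early genes were high and rats in which most were low. Over all tested probes the share above that mean lay between 47.2% and 54.2% in every rat. The median deviation of the 35 genes ran from −0.29 in OV+E2 replicate 1 to 0.28 in OV+E2 replicate 5, and from −0.13 in replicate 5 to 0.17 in replicate 3 among OV rats.

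**Figure D4:**
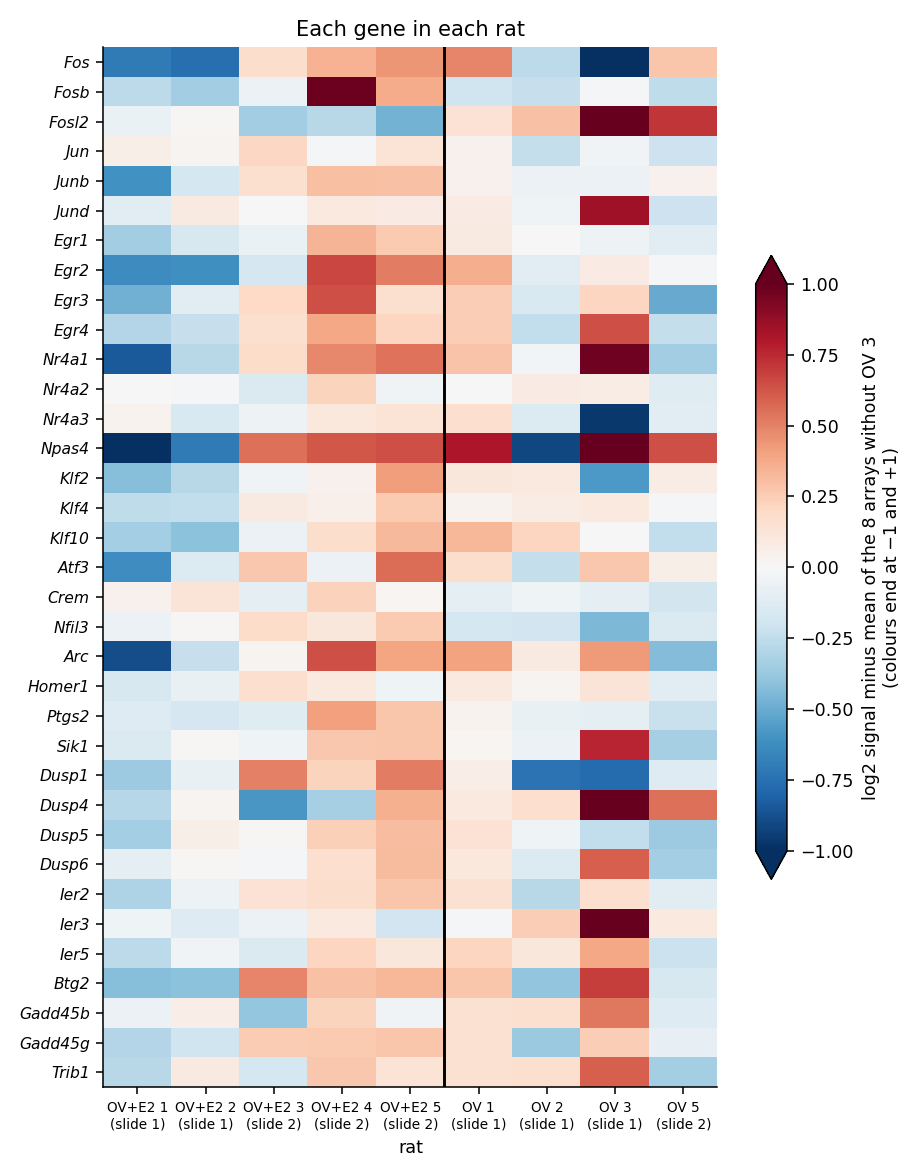
Each of 35 immediate early genes (rows) in each rat (columns, OV+E2 left of the line and OV right), as log2 signal minus the mean of the 8 arrays other than OV replicate 3, with colours ending at −1 and +1. OV+E2 replicate 1 is blue for most genes (4 of 35 above the mean) and OV+E2 replicates 4 and 5 are red for most (31 and 30 of 35).

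Markers of tissue that borders the amygdala also differed between these rats. The mean level of 6 striatal markers, all tested, was 1.69 in OV+E2 replicate 1 and 2.31 to 3.09 in the other 8 rats. That of 3 thalamic markers, all tested, was 0.19 in OV+E2 replicate 2 and −0.63 to −0.13 in the other rats. That of 4 choroid plexus markers, all tested, was 0.86 to 2.69 in OV+E2 rats and −1.60 in OV replicate 2, with 1.30 to 2.37 in the other OV rats. The mean level of 6 microglial markers, all tested, was 0.34 to 0.48 in OV+E2 rats and 0.61 to 0.92 in OV rats, with Csf1r (mean −0.43 in OV+E2 and −0.47 in OV rats) and Tmem119 (−0.55 and −0.65) going the other way. The mean of the striatal markers varied with Arc over the 9 rats (r 0.81, exact permutation p 0.00785; rho 0.77, p 0.0214), with an adjusted p of 0.102 for r and 0.278 for rho over the 13 marker lists examined. The r was 0.53 without OV+E2 replicates 1 and 4, the rats farthest from the median of Arc. It was 0.81 without OV replicate 3. On deviations from the slide mean r was 0.84 (permutation adjusted p 0.0306) and rho 0.77 (adjusted p 0.278). That permutation paired all 9 rats freely and not within slides, so its p-values are approximate. The r on those deviations was 0.44 without OV replicate 5 and OV+E2 replicate 1, the rats farthest on them. The mean of the thalamic markers varied inversely with Fos (r −0.80, exact permutation p 0.00785, adjusted p 0.0674; rho −0.77, adjusted p 0.278). That r was −0.82 without OV replicate 3 (permutation adjusted p 0.129) and −0.69 on deviations from the slide mean (adjusted p 0.293). It was −0.75 without OV replicate 3 and OV+E2 replicate 2, the rats farthest from the median of Fos. Leaving out OV+E2 replicate 1 as well gave −0.21. The relation with Fos was not particular to thalamic markers. Its r was −0.78 for oligodendrocyte markers (exact permutation, adjusted p 0.0674). It was −0.68 for endothelial and 0.67 for neuronal markers (adjusted p 0.107 for both). Without OV replicate 3 these r were −0.58, −0.32 and 0.21. Whether the share of bordering tissue sets the levels of Arc and Fos was not tested.

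For most of the genes the difference between OV+E2 and OV rats had opposite signs on the 2 slides. Within slide 1 the OV+E2 rats were lower in 30 of 35 genes, and within slide 2 they were higher in 31 of 35. In 26 genes the difference was negative on slide 1 and positive on slide 2, where 22.6% of all probes had that pattern, and in 0 genes was it the reverse. The median difference was −0.31 on slide 1 and 0.31 on slide 2, beside −0.02 and 0.01 for all probes. The 26 genes became 24 to 27 when any single rat was left out, 23 in the authors' values and 27 under quantile normalization. OV replicate 5 could not be left out, as it is the 1 OV rat on slide 2.

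Arc differed by −0.86 within slide 1 and 0.78 within slide 2. Nr4a1 gave −0.97 and 0.75, Egr3 −0.40 and 0.84, and Btg2 −0.61 and 0.53. These genes were measured in the same rats and share the 1 OV rat of slide 2, so they are not separate evidence for the pattern. The second probe of Egr3 did not have this pattern (−0.79 and −0.45), nor did that of Egr2 (−0.59 and −1.16), while that of Egr1 did (−0.11 and 0.49). Positive differences on both slides were found in 5 genes: Jun, Nr4a3, Crem, Nfil3 (0.25 and 0.33) and Dusp1 (0.26 and 0.54). Negative differences on both were found in 4: Fosl2, Npas4, Dusp4 (−0.63 and −0.74) and Ier3.

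The difference between the slides was tested as an interaction of slide and treatment in limma over all probes. At an unadjusted p under 0.05 it was more positive on slide 2 in 9 of 35 genes (Arc, Btg2, Egr2, Egr3, Egr4, Ier5, Klf4, Klf10 and Nr4a1), beside 2.18% of all probes, and none passed adjustment (0% of all probes). The smallest p was that of Arc, with an interaction of 1.65 ± 0.42 (unadjusted p 0.00592, adjusted p 0.738). The 9 genes became 12 without OV replicate 3 (4.92% of all probes) or without OV replicate 2 (2.36%). The authors' values gave 13 (4.69%), and 0 were called there or without OV replicate 3, beside 0.215% of all probes when OV replicate 3 was left out and 0.00333% for the authors' values. The 9 genes became 4 without OV replicate 1 (4.09%), OV+E2 replicate 1 (1.48%), OV+E2 replicate 4 (1.52%) or OV+E2 replicate 5 (1.53%). These counts rest on the brightest probe of each gene. On the second probes of Egr2 and Egr3 the interaction was −0.57 ± 0.54 and 0.34 ± 1.15. For the brightest probe of Fosl2 it was 0.60 ± 1.97 over all rats and −0.83 ± 0.16 without OV replicate 3, so more negative on slide 2. With 1 OV rat on slide 2, the slide and the state of that rat cannot be told apart there. Whether the rats of a slide were also killed, dissected or labelled together is not stated in the labels.

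**Figure D5:**
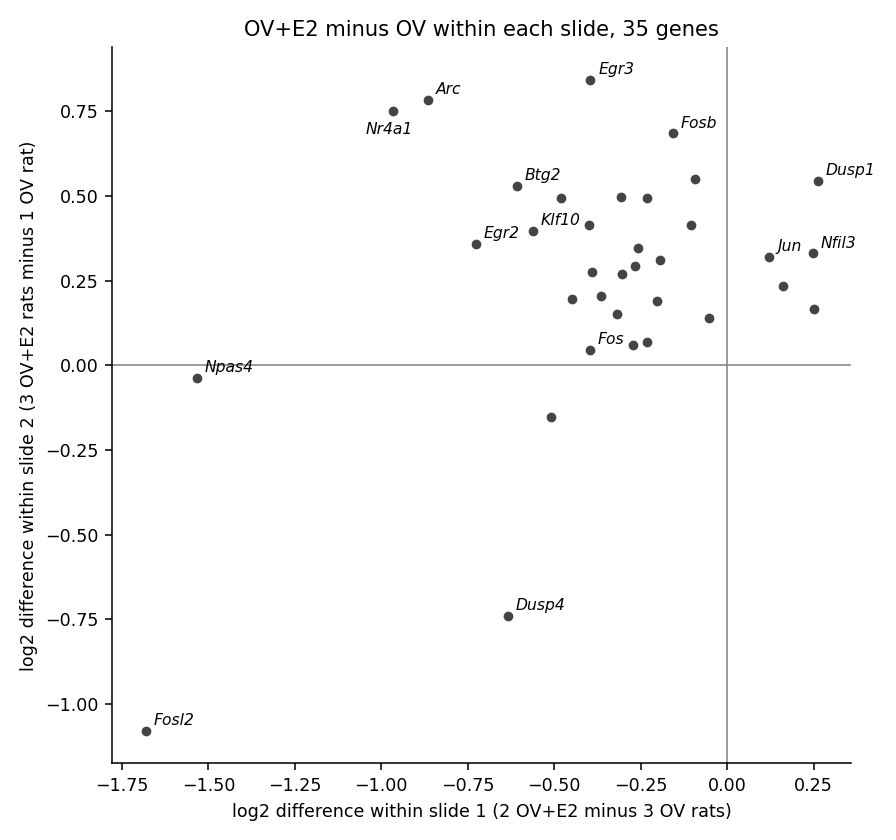
Log2 difference, OV+E2 minus OV, within slide 1 (horizontal) and within slide 2 (vertical) for 35 immediate early genes, with 14 genes named. Of the points 26 lie in the upper left, negative on slide 1 and positive on slide 2, and 0 in the lower right. The vertical axis rests on 1 OV rat.

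Whether the genes varied together between rats was examined with Fos and then with Arc, which was chosen after the levels had been seen. Correlations were taken over all 9 rats for each of the 34 other genes, with exact two-sided permutation tests over all pairings and Benjamini-Hochberg adjustment over the 34. With Fos, 3 genes reached r of at least 0.7, beside 6.41% of all probes, and only Klf2 was called (r 0.89, permutation p 0.00113, adjusted p 0.0384; Spearman rho 0.85, adjusted p 0.103). Klf2 kept r 0.78 without the 2 rats farthest from the median of Fos. Fos was at its lowest in OV replicate 3, and without that rat 14 genes reached r of at least 0.7 (2.67% of all probes) with 0 called, by exact permutation of 8 arrays. In the authors' values 9 genes did (1.99%) and 2 were called. Under quantile normalization 4 genes did (20.2%), on deviations from the group mean 4 (11.9%), on those from the slide mean 2 (6.7%), and on the last without OV replicate 3, 6 (3.99%).

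With Arc, 17 of the 34 genes reached r of at least 0.7, beside 1.14% of all probes, and the median r was 0.69, beside 0.02 for all probes. By exact permutation 10 were called with Pearson's r and 12 with Spearman's rho. When OV replicate 3 was left out these counts were 10 and 5, and the authors' values gave 9 and 8. Nr4a1 stood first (r 0.92, adjusted p 0.0146; rho 0.9, adjusted p 0.0209, exact permutation). It was followed by Egr3 (r 0.90; rho 0.88), Egr1 (r 0.88; rho 0.87), Ier5 (r 0.87; rho 0.92), Egr2 (r 0.84; rho 0.83), Egr4 (r 0.81; rho 0.88) and Klf10 (r 0.81; rho 0.7). The last 3 called by Pearson's r were Junb (r 0.79), Ier2 (r 0.79) and Trib1 (r 0.78). Without the 2 rats farthest from the median of Arc, OV+E2 replicates 1 and 4, 10 genes still reached r of at least 0.7 and 7 of the 10 called genes were among them. The exceptions were Junb, whose r became 0.32, Egr2 (0.69) and Ier2 (0.63), so that the relation of Junb rests on those rats. Low correlations with Arc were found for Fos (r 0.32), Jun (r 0.10) and Nfil3 (r 0.04).

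Within the slides, on deviations from the slide mean, 18 genes reached r of at least 0.7 with Arc (2.1% of all probes) and 10 were called. Calls on deviations are approximate, because rats were paired freely and not within slide or group. On deviations from the group mean 18 did (2.23%) and 15 were called, and on those from the slide mean without OV replicate 3, 16 did (4.25%) and 10 were called with Pearson's r and 4 with Spearman's rho. On the levels themselves the genes at r of at least 0.7 numbered 19 without OV replicate 3 (2.54%), 17 in the authors' values (2.1%) and 15 under quantile normalization (1.03%). The mean of the 6 striatal markers, with r 0.81 to Arc, lay as close to it as Egr4 and Klf10. The genes of a rat were all scaled by 1 percentile of 1 array, and the part of that scaling in the correlations was not tested.

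The genes that carry synaptic signals to the nucleus were examined as a list of 37 kinases, channels and transcription factors, all tested. None was called (limma, adjusted p under 0.05). Positive differences numbered 20 and negative 17, with a median of 0.01, and at an unadjusted p under 0.05 there was 1 higher (3.2% of all probes) and 1 lower (7.17%). The lower gene was Mapk3, which encodes the kinase ERK1, with 7.23 ± 0.11 in OV+E2 rats and 7.97 ± 0.68 in OV rats (SD, n = 5 and 4; adjusted p 0.411). The higher gene was Rps6ka3, which encodes the CREB kinase RSK2, with 1.52 ± 0.12 in OV+E2 rats and 1.14 ± 0.37 in OV rats (adjusted p 0.481). OV replicate 3 was the highest rat for Mapk3 and the lowest for Rps6ka3, and without it the differences of −0.74 and 0.38 were −0.44 and 0.20. Creb1, the gene of CREB, was at 1.30, 1.29, 1.26, 1.21 and 1.24 in OV+E2 rats and at 1.10, 1.11, 1.12 and 1.07 in OV rats. Every OV+E2 rat was above every OV rat, as for 2.88% of all probes, with a difference of 0.16 ± 0.07 (unadjusted p 0.0612, adjusted p 0.496).

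Genes that respond later or secondarily to activity were examined as a list of 25, all tested. None was called, 17 differences were positive and 8 negative, and the median was 0.06. At an unadjusted p under 0.05 there were 3 higher (3.2% of all probes) and 1 lower (7.17%). Rasd1, a small GTPase induced by glucocorticoids, was at 0.78, 1.04, 0.66, 0.86 and 0.92 in OV+E2 rats and at 0.59, 0.60, 0.38 and 0.46 in OV rats. The groups did not overlap, as for 2.88% of all probes with OV+E2 higher (0.35 ± 0.10, unadjusted p 0.00876, adjusted p 0.313), and the difference was 0.39 within slide 1 and 0.36 within slide 2. Scg2, the precursor of secretoneurin, differed by 0.28 ± 0.10 (adjusted p 0.4) and Ntrk2, the receptor of BDNF, by 0.24 ± 0.09 (adjusted p 0.417). Gem, a GTPase that inhibits calcium channels, differed by −0.65 ± 0.23 (adjusted p 0.379).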

How the data were processed

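RNA of 9 rats was measured on 1-colour (Cy3) Agilent rat arrays, 200 ng of total RNA each, and per the labels' protocols its integrity number was above 7. The authors deposited the scanner output, in which the processed signal of a spot is an intensity after background subtraction, per the file headers. The submitters' processing notes name Agilent Feature Extraction 9.1, while the file headers name 10.7.3.1. The authors' own table, used here as an alternative, holds processed intensities. It was read as already normalized, and log2 was taken here. How it was scaled is not stated in the labels or headers. Its column for OV replicate 3 correlated with that rat's scanner values at 0.939, and each other column at 0.9999 or above.

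Control spots (4259 an array) and 253 to 517 outlier spots were left out, and spots of a probe averaged. Values were log2 minus the 75th percentile. No spot was saturated. Gene names and rn4 coordinates are those of the array files. All probes were fitted together with limma 3.58.1 in R 4.3.3 (lmFit, eBayes), group as the only term, and p-values were adjusted by Benjamini-Hochberg. The method was tested on data simulated with the mean and residual SD of each probe, with 50 probes changed at each size. Of these, 30% were called at 1.5-fold, 44% at 2-fold, 78% at 3-fold and 88% at 4-fold. Most changes of 2-fold or less were thus missed. Every probe of the 37 genes was eligible to be named, and from each other list up to 4 genes of smallest p, of which 1 is not reported here. The members and lists were chosen with earlier results of these data known. Replicate numbers were not used as pairs, since the labels give no meaning to them and same-numbered rats correlated at 0.20, −0.05, −0.02 and 0.16 in their deviations from the group means. Alternatives were quantile normalization, median scaling, normexp (offset 50), other filters, the authors' values, slide or replicate as a block, array weights and leaving out each rat. Precision is limited by the number of arrays.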

Additional observations from a re-analysis of the deposited data

Results flagged for a closer look

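In 3 of the 70 groups examined, 1 rat lay farther from the rest of its group than Dixon's criterion allows, which by chance happens in about 1 in 20 groups. All 3 were OV replicate 3, and the values are levels as in the report. Fosl2 was at 2.99 in that rat, where the other OV rats were at −1.39 to −0.81. Klf2 was at −2.92, where the others were at −2.28 to −2.23. Nfil3 was at −1.51, where the others were at −1.25 to −1.20. In the authors' values the same rat lay above the median of the other OV rats by 0.65 for Fosl2, 0.10 for Klf2 and 0.56 for Nfil3. The array of this rat was the dimmest of the 9, and the part of that in these values was not tested.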

How the results depend on the processing

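No immediate early gene was called under any of the alternatives run, but the numbers of genes at an unadjusted p under 0.05 are small and moved with most of them. The count of called probes over the whole array, 0 in the report, was 9 with no filter on dim probes, 69 in the authors' values, 26 in those with slide as a block, 1 in those without OV replicate 3, 1294 with array weights, 1 with slide as a block and OV replicate 3 left out, and 0 to 1 when a single rat was left out. The members at an unadjusted p under 0.05, 1 higher and 1 lower in the report, numbered 2 higher under quantile normalization, median scaling and normexp, with 0 lower under normexp, under the filter of all 9 arrays and with slide as a block. They were 3 higher and 2 lower in the authors' values (2 and 3 with slide as a block, 2 higher without OV replicate 3) and 5 and 2 with array weights. Leaving out a rat gave 1 to 3 higher and 0 to 3 lower, and a median difference of the members of −0.09 to 0.07.

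The list of signal carriers, with 1 higher and 1 lower in the report, had 0 higher under quantile normalization, median scaling, no filter and slide as a block, 2 under normexp and the filter of all 9 arrays, 4 in the authors' values (also without OV replicate 3; 3 with slide as a block) and 5 with array weights. Lower genes numbered 0 with slide as a block and 2 with array weights, which called 1 gene (Mapk3). With slide as a block and OV replicate 3 left out there were 2 higher and 0 lower. Leaving out a rat gave 0 to 4 higher and 0 to 1 lower. Beside this list and the late list, 8.47% of all probes were higher, 10.4% lower and 0.23% called in the authors' values. With array weights these shares were 11.2%, 14.1% and 4.28%. The late list, with 3 higher and 1 lower, had 0 lower under quantile normalization and the filter of all 9 arrays, 6 higher and 1 called (Cebpb) in the authors' values, 5 higher and 2 lower in those with slide as a block, 8 higher and 2 called (Cebpb and Gem) with array weights, 2 lower with slide as a block and OV replicate 3 left out, and 2 to 6 higher and 0 to 2 lower when a rat was left out.

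With the replicate number as a block, 0 probes were called, the members had 0 higher and 0 lower at an unadjusted p under 0.05 and a median of −0.06, the signal carriers 0 higher, and the late list 1 higher and 0 lower. That pairing is not given by the labels and leaves out OV+E2 replicate 4.

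Genes called with Fos, 1 in the report, numbered 0 without OV replicate 3, 2 in the authors' values, 4 on deviations from the group mean and 2 on those from the slide mean with OV replicate 3 left out. Those called with Arc, 10 in the report, numbered 6 under quantile normalization and 10 without OV replicate 3. With Spearman's rho the 12 called became 5 without OV replicate 3. Signs of single genes, none of them called, turned in 15 of 35 in the authors' values (10 with slide as a block or without OV replicate 3), 13 with array weights, 10 without OV replicate 3, and 0 to 9 under each other setting. The alternatives in the authors' values, Arc as marker and the interaction with slide were partly chosen after seeing the data. The cause of these changes was not tested.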
